A study of Arabidopsis thaliana with 9 samples.

Results

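Of the 9 root libraries of this series, 3 held fewer than 10000000 counts, and these 3 shallow libraries were set against the other 6, the deep libraries, across all genes that passed a low-count filter. The libraries were chosen by a limit on their total count, set with earlier results of these data known. The shallow libraries were 1 day library 3 with 7533177 counts, 7 day library 3 with 6707693 and mock library 1 with 5820675, so that each treatment group held 1 shallow and 2 deep libraries. The nearest total above the limit was 13707967, in 1 day library 1, and the deepest library, 1 day library 2, held 16088265.

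All libraries came from roots of Arabidopsis thaliana seedlings of the wild-type ecotype Col-0, grown at 24 °C with 16 h of light and 8 h of dark. Seedlings of the 1 day group spent 6 days on plain medium and then 1 day on medium with 10 µg/mL carbenicillin, a beta-lactam antibiotic that blocks cell wall synthesis in bacteria. Those of the 7 day group had carbenicillin at that dose on both plates, and those of the mock group had it on neither. Every group was therefore moved once to a second plate, 1 day before harvest, and each held 3 libraries. The labels do not say whether the libraries of a group came from separate plates or harvests, so the p-values below measure the spread between these libraries, which may be technical. That these libraries stand apart in touch-response genes was known from earlier results of the same data, so those genes are described here and are no independent support for the split.

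Plants answer touch, bending and wounding within minutes. Calcium enters the cytosol, calmodulin-like proteins bind it, and a set of short-lived messages for transcription factors, zinc finger proteins and RNA-decay enzymes builds up and fades again. The first such genes found in Arabidopsis were named TCH for touch: TCH2 and TCH3 encode calmodulin-like proteins, and XTH22, also called TCH4, encodes an enzyme that cuts and rejoins xyloglucan in the cell wall. The promoters of many rapid stress genes hold the motif CGCGTT, which calmodulin-binding CAMTA factors recognise.

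Among the members of the touch and early wounding list, the genes TCH2 and CML23, both calmodulin-like, had CGCGTT within the 250 bases before the annotated gene start. Their promoters are shown because they carry that motif beside a higher level in the shallow libraries. They were the only 2 with the motif among 26 promoters of the list (7.69%), beside 2.69% of all promoters read. Both are given 5′ to 3′ along the gene's own strand, from the RefSeq genome of build TAIR10.1. That of TCH2 lies at chr5:14999620-14999869 on the minus strand and that of CML23 at chr1:24771394-24771643 on the minus strand. Capitals mark CGCGTT and its reverse complement; in TCH2 both overlap within each of the capital runs.
TCH2: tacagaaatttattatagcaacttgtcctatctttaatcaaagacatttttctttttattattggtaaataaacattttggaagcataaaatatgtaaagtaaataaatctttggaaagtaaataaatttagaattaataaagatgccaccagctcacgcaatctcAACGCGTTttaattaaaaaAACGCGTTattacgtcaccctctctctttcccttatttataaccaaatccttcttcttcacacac
CML23: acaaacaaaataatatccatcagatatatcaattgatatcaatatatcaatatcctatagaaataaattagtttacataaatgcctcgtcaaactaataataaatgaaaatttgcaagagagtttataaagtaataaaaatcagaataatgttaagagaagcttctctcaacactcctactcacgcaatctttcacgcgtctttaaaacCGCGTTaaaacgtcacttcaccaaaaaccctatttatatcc
TCH2 held 4 matches counted over both strands and CML23 held 1. The submitters' build is not given in the sources used here, so that only the locus identifier joins these positions to the counts.

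Of 19580 genes tested, 155 were higher in the shallow libraries (0.792%) and 118 were lower (0.603%), which makes 273 in all (1.39%). These shares are the background for every list count below. The threshold was an adjusted p under 0.05, from edgeR's quasi-likelihood test, Benjamini-Hochberg adjusted, with treatment group as a term. The median log2 difference was 0.94 over the genes called higher and -0.91 over those called lower. Over all tested genes it was -0.00, with 5% of genes below -0.50 and 5% above 0.45. An absolute log2 difference of at least 1 was found in 66 of the genes called higher and 52 of those called lower. In all 155 and all 118 the shallow library lay beyond both deep libraries of its own group in all 3 groups; over all tested genes this held upward for 1794 (9.16%) and downward for 1808 (9.23%). All 3 shallow libraries lay above all 6 deep ones in 131 of the 155 and below them in 111 of the 118, against 878 (4.48%) and 876 (4.47%) of all tested genes. The calls were made on these same values, so such separation describes the called genes and is no further support. The counts fell to 49 higher and 15 lower without mock library 1, and to 19 and 11 once the summed level of shoot transcripts entered as a covariate. In bulk RNA, fewer cells of a type and less RNA per cell cannot be told apart.

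**Figure D1:**
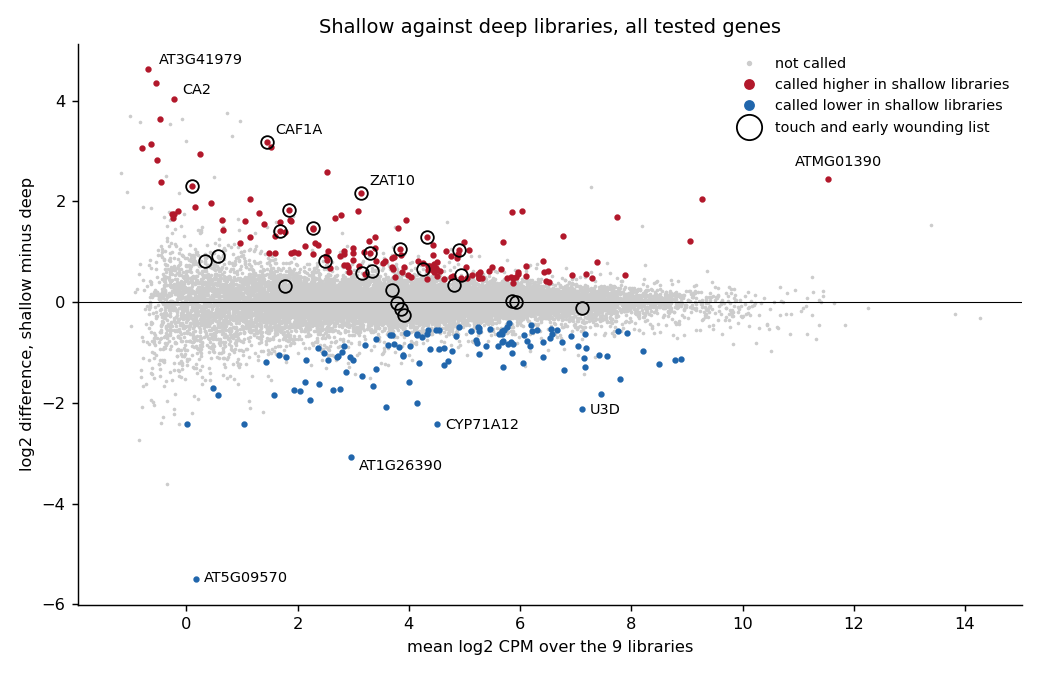
Each point is 1 of the 19580 tested genes, placed by its mean log2 CPM over the 9 libraries (x axis) and its log2 difference, shallow minus deep (y axis). Red points are the 155 genes called higher, blue points the 118 called lower, and open circles the 26 tested genes of the touch and early wounding list, of which 22 lay above 0 and 10 were called.

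Of the gene lists, that of touch and early wounding had 30 genes, of which 26 passed the filter; 10 were called higher and 0 lower, beside 0.792% and 0.603% of all tested genes. Their median log2 difference was 0.74, and it was 0.60 within the 1 day group, 1.15 within the 7 day group and 0.51 within the mock group. Of the 26, 15 were higher in the shallow library of every group, beside 9.16% of all tested genes. The mean log2 CPM of the list was 3.77, 4.06 and 3.81 in the shallow 1 day, 7 day and mock libraries and between 2.87 and 3.28 in the deep ones. The filter left out CML37, XTH25, ERF109 and SIB1, none with more than 10 counts in any library. Since the list was written with earlier results known, its count is a description. Leaving out 7 day library 3 or mock library 1 left 6 members called, with medians of 0.47 and 0.93.

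CAF1A, a deadenylase that shortens the poly(A) tails of messages, had the largest difference of the list. It stood at 6.53, 18 and 10.7 CPM in the shallow 1 day, 7 day and mock libraries, against 0.942 to 1.58 CPM with a median of 1.18 in the deep libraries. All 3 shallow values exceeded all 6 deep ones, and the log2 difference was 3.19 ± 0.27 (SE, edgeR adjusted p = 0.000598). CPM, each library's counts scaled to a common total by TMM, compare libraries within a gene and not genes with each other.

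ZAT10, a C2H2 repressor of stress genes, had 20, 27 and 24.5 CPM in the shallow libraries in the same order, against 3.49 to 7.92 CPM with a median of 5.29 in the deep ones. SZF1, a CCCH protein, had 45.4, 52.2 and 48 CPM in the shallow libraries, against 20.4 to 25.4 CPM with a median of 24.1. For both genes the groups of libraries did not overlap, and the log2 differences were 2.17 ± 0.19 for ZAT10 (edgeR adjusted p = 0.000598) and 1.04 ± 0.10 for SZF1 (0.000655). The list of ZAT and CCCH zinc finger genes had 7 tested members, with 2 called higher and 0 lower, beside 0.792% and 0.603% of all tested genes. Its median was 0.54, and SZF2 had a log2 difference of 0.39 ± 0.09 and an edgeR adjusted p of 0.0554. ZAT12, a widely used marker of stress and wounding, did not pass. It had 21.7, 28.6 and 27.2 CPM in the shallow libraries, against 12 to 23.9 CPM with a median of 15.9 in the deep ones, a difference of 0.66 ± 0.16 on the log2 scale (edgeR adjusted p = 0.0748). The shallow 1 day library lay below deep mock library 2 for this gene, while each shallow library exceeded the deep ones of its own group.

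Among the calcium-binding proteins, TCH2, whose promoter is printed above, had 19.8, 22.9 and 27.7 CPM in the shallow libraries, against 8.85 to 14.5 CPM with a median of 11.1 in the deep ones (log2 difference 1.06 ± 0.12, edgeR adjusted p = 0.00244). CML39 had 2.35, 3.6 and 1.93 CPM in the shallow libraries, against 0.314 to 0.644 CPM with a median of 0.539 (2.31 ± 0.30, 0.00487). CML23, the other gene with CGCGTT in its promoter, had 17, 12.1 and 17.5 CPM, against 4.87 to 10.2 CPM (0.98 ± 0.18, 0.0303). The 3 genes had no overlap between shallow and deep libraries. TCH3 did not follow them. It had 16.5, 14.2 and 5.78 CPM in the shallow libraries, against 4.88 to 12.1 CPM with a median of 8.09 in the deep ones, and its shallow mock library lay below both deep mock libraries (0.58 ± 0.29, adjusted p = 0.373 by edgeR). AT3G29000, an EF-hand protein outside the lists, rose to 6.27, 3.9 and 5.96 CPM in the shallow libraries, against 1.14 to 2.42 CPM in the deep ones. The wider calcium signalling list had 14 tested members and a median of 0.05. In it TCH2, CML39 and CML23 were called higher, while ACA12, a calcium pump, and CBP60G, a calmodulin-binding regulator of salicylic acid synthesis, were called lower. Of all tested genes 0.792% were called higher and 0.603% lower. ACA12 had 14, 13.9 and 18.4 CPM in the shallow libraries, against 25.5 to 44.3 CPM with a median of 34.4 in the deep ones (-1.16 ± 0.14, edgeR adjusted p = 0.00287). CBP60G had 0.522, 0.45 and 0.876 CPM in the shallow libraries, near the 0.398 to 0.515 CPM that equal 3 counts there. In the deep ones it had 0.805 to 4.44 CPM, highest in the mock group (-1.84 ± 0.34, edgeR adjusted p = 0.0281). Shallow and deep libraries overlapped for this gene.

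Transcription factors of the ethylene response family differed most in ERF105. It had 11.1, 14.7 and 8.93 CPM in the shallow libraries, against 0.574 to 2 CPM with a median of 1.38 in the deep ones (log2 difference 3.08 ± 0.26, edgeR adjusted p = 0.000598). ERF104 had 26.8, 46.6 and 37.7 CPM against 10.1 to 19.3 CPM (1.30 ± 0.19, 0.00926), and its call was lost without 7 day library 3 (1.14, adjusted p = 0.0625) and without mock library 1 (1.10, 0.0787). The ERF and DREB list had 12 tested members and a median of 0.58. Of these ERF105, ERF104 and ERF11 were called higher and 0 lower, beside 0.792% and 0.603% of all tested genes. ERF11 kept its call in 1 of the 9 fits that left out 1 library, the one without 1 day library 1; its log2 difference stayed between 1.09 and 1.34. WRKY40, a repressor in defence and abscisic acid signalling, had 6.4, 11.2 and 7.18 CPM in the shallow libraries, against 1.7 to 2.96 CPM with a median of 2.23 in the deep ones (1.84 ± 0.22, 0.00287). It was the one called member among 15 tested WRKY genes, beside 0.792% of all tested genes called higher. Their median was 0.02, and WRKY22 at 0.93 ± 0.28 and WRKY46 at 1.37 ± 0.44 did not pass.

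**Figure D2:**
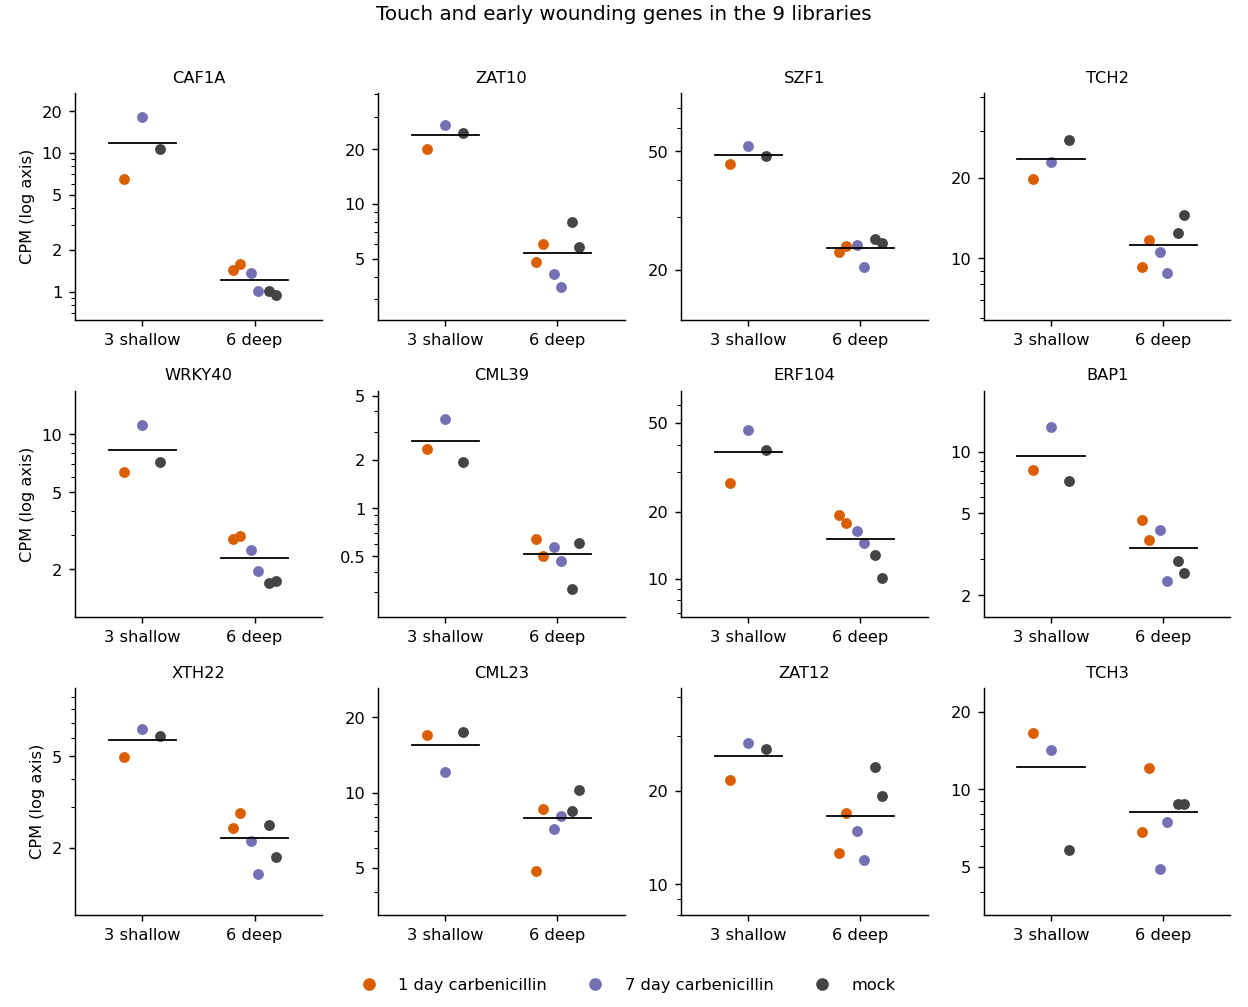
CPM (log axes) of 12 genes of the touch and early wounding list, 1 panel a gene, with the 3 shallow libraries left of the 6 deep ones, colours for the treatment groups and a line at the mean. In the first 10 panels every shallow library lies above every deep one, as with CAF1A at 6.53 to 18 CPM against 0.942 to 1.58; in ZAT12 and TCH3 they overlap.

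The remaining called members of the list were the C2-domain protein BAP1 and XTH22, both outside the rule that chose the genes described in full. BAP1 had 8.1, 13.2 and 7.18 CPM in the shallow libraries, against 2.35 to 4.65 CPM in the deep ones. XTH22 had 4.96, 6.59 and 6.13 CPM, against 1.54 to 2.84 CPM. The 16 members that did not pass had log2 differences between -0.25 (XTH23) and 0.92 (MYB15). The kinase MPK3 had a log2 difference of 0.01 ± 0.10, WRKY33 of 0.02 ± 0.10 and CAM2, a calmodulin gene also known as TCH1, of -0.12 ± 0.10.

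Outside the lists, the gene with the lowest p was DIC2, a dicarboxylate carrier of the inner mitochondrial membrane. It had 15.4, 25.8 and 15.4 CPM in the shallow libraries, against 2.46 to 3.84 CPM with a median of 3.19 in the deep ones (log2 difference 2.59 ± 0.19, edgeR adjusted p = 0.000598). NUDT4, a nudix hydrolase, had 14.5, 24.1 and 20.5 CPM against 4.38 to 6.8 CPM (1.82 ± 0.18, 0.000916), and AT4G29780, annotated as a nuclease, had 12.9, 17.8 and 14.7 CPM against 3.7 to 5.28 CPM (1.74 ± 0.16, 0.000695). The groups of libraries were separate for all 3 genes. Among the jasmonate genes, the synthesis enzyme LOX4, a lipoxygenase, had 5.22, 7.04 and 3.68 CPM in the shallow libraries, against 1.01 to 1.79 CPM with a median of 1.17 in the deep ones (2.04 ± 0.23, 0.00209). It was the one called member among 10 tested synthesis genes; the cyclase genes AOC3 at 0.46 ± 0.14 and AOC2 at -1.52 ± 0.45 did not pass. In the response list of 16 tested genes, with a median of 0.03, the repressor gene JAZ1 rose by 0.49 ± 0.09 (edgeR adjusted p = 0.0305) and VSP1, a storage protein gene induced by jasmonate, fell, with a log2 difference of -1.20 ± 0.19 (edgeR adjusted p = 0.0166). JAZ1 kept its call in 2 of the 9 fits that left out 1 library, those without 1 day library 1 and without 7 day library 1. VSP1 lost its call without 1 day library 3 (-1.08, adjusted p = 0.074) and without mock library 1 (-1.12, 0.111).

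Of the 149 protein-coding genes called higher, 15 had CGCGTT on either strand within 250 bases before the gene start (10.1%), beside 4 of the 110 called lower (3.64%) and 512 of all 19040 promoters read (2.69%). Besides TCH2 and CML23, the 15 included DIC2, LOX4, JAZ1 and HSP70-4. Of the 10 touch list members called higher, only TCH2 and CML23 had the motif. GCCGCC, the core of the box that ERF proteins bind, was in 6.04% of promoters of genes called higher, 4.55% of those called lower and 1.92% of all. For the WRKY-bound TTGACC or TTGACT these shares were 32.2%, 32.7% and 28.6%. For CACGTG they were 9.4%, 12.7% and 7.24%. For AAAATATCT, AAACCCTAA and TGGGCC they were 3.36%, 1.34% and 18.8% of genes called higher, 5.45%, 1.82% and 9.09% of genes called lower, and 2.43%, 2.06% and 16.5% of all. Each motif was searched on both strands and none contains another; a match is a run of letters and not a shown binding site.

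Heat shock genes split. HSP90.1, an inducible chaperone, had 91.4, 79.3 and 103 CPM in the shallow libraries, against 33.1 to 47.2 CPM with a median of 39.4 in the deep ones (log2 difference 1.20 ± 0.11, edgeR adjusted p = 0.000741). ROF2, a co-chaperone with an FKBP domain, had 38.1, 35.4 and 34.7 CPM against 13 to 19.8 CPM (1.13 ± 0.12, 0.00163). HSP70-4 had 271, 176 and 286 CPM against 103 to 178 CPM (0.80 ± 0.17, 0.0442); it kept its call in 2 of the 9 fits that left out 1 library, those without 7 day library 1 and without 7 day library 3. The median of the list was -0.01, and of all tested genes 0.792% were called higher. The other 9 of the 12 tested members did not pass. Among them the heat stress factor HSFA2 had a log2 difference of 0.19 ± 0.39 and HSP101 of 0.33 ± 0.16. Hop3, a co-chaperone named here after its values had been seen, had 37.3, 41.7 and 42.2 CPM in the shallow libraries, against 16.5 to 25.4 CPM in the deep ones.

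AT1G23720, a proline-rich extensin-like gene, had 97.4, 168 and 214 CPM in the shallow libraries, against 31.7 to 69.2 CPM with a median of 38.8 in the deep ones (log2 difference 1.82 ± 0.17, edgeR adjusted p = 0.000741). AT5G35940, a mannose-binding lectin gene, had 93.5, 185 and 136 CPM against 27.3 to 45.8 CPM with a median of 39.4 (1.80 ± 0.16, 0.000655). Both were separate between the libraries. Extensins are wall glycoproteins that cross-link into a network. Of 36 tested genes whose RefSeq product names extensin, a group chosen after the calls had been seen, 4 were called higher and 1 lower, beside 0.792% and 0.603% of all tested genes; 19 lay above 0 and 17 below, with a median of 0.00. AT2G43150, one of the 4 and, like LRX3, outside the naming rule, had 711, 899 and 1200 CPM in the shallow libraries, against 279.7 to 547 CPM in the deep ones. LRX3, a leucine-rich repeat extensin gene, had 49.5, 50.5 and 65.9 CPM against 18.2 to 34.7 CPM.

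Of the 16 members of the root hair list, all tested, 4 were called lower and 0 higher, beside 0.603% and 0.792% of all tested genes. The median was -0.42, with 13 below 0 and 3 above. XTH14, an enzyme of wall loosening in growing hairs, had 129, 80.6 and 83.2 CPM in the shallow libraries, against 156 to 223 CPM with a median of 179 in the deep ones (log2 difference -0.91 ± 0.12, edgeR adjusted p = 0.00684). EXPA18, a root hair expansin, had 44.4, 35.7 and 41.3 CPM against 51.7 to 72.8 CPM (-0.56 ± 0.09, 0.0148). XTH12, of the same enzyme family as XTH14, had 21, 16.2 and 12.6 CPM against 26 to 39.6 CPM (-0.90 ± 0.15, 0.0218). EXPA7, outside the naming rule, had 49.1, 43.2 and 45.5 CPM against 59.3 to 66.3 CPM (-0.42 ± 0.08, 0.0345). In each of these 4 genes all shallow libraries lay below all deep ones. The wall protein gene LRX2 lay on the other side at 0.80 ± 0.18 (edgeR adjusted p = 0.0575), as did its relative LRX1 at 0.29 ± 0.19; with DESeq2, 1 member was higher and 7 were lower. The hair regulators RHD6 and RSL4 differed by 0.02 ± 0.12 and -0.23 ± 0.16 and the oxidase gene RHD2 by -0.03 ± 0.08, none past the threshold; RHD2, a root marker, had 95.8 to 120.2 CPM in the shallow libraries and 95.8 to 124 CPM in the deep ones. The median of the list was -0.06 within the 1 day group, -0.72 within the 7 day group and -0.39 within the mock group. Each of these values rests on 1 shallow library, and no gene passed the interaction test given below. Without mock library 1 none of the 4 calls remained (XTH14 at -0.79, edgeR adjusted p = 0.0642), and with the shoot covariate 0 members were called. Over all 23 alternatives the log2 difference stayed between -1.07 and -0.78 for XTH14, -0.59 and -0.47 for EXPA18, and -1.26 and -0.74 for XTH12. Leaving out 1 day library 3, 1 day library 2 or 7 day library 3 left 2, 2 and 1 members called lower.

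A second set was taken after the calls had been seen. All 15 genes that RefSeq describes as root hair specific were tested, and all 15 had a log2 difference below 0, with a median of -0.48; 6 were called lower, beside 0.603% of all tested genes. RHS14 had 12, 8.39 and 7.01 CPM in the shallow libraries, against 16 to 21.9 CPM with a median of 18.8 in the deep ones (-1.05 ± 0.13, edgeR adjusted p = 0.00394). RHS13 had 62.5, 42.6 and 44.7 CPM against 69.5 to 105 CPM, and RHS19, a peroxidase gene, had 76.8, 45.7 and 57.6 CPM against 88.8 to 111 CPM. Their within-group medians were -0.42, -0.65 and -0.48 for the 1 day, 7 day and mock groups. Markers of other root tissues were not called with them: none of 23 endodermis and suberin genes and none of 20 xylem and secondary wall genes was called, with medians of 0.01 and -0.05, and the most extreme, FAR1 and FRA8, had log2 differences of -0.62 ± 0.18 and -0.47 ± 0.14. At an unadjusted p under 0.05, beside 15.3% of all tested genes, edgeR had 0 higher and 3 lower of the endodermis genes. Of the xylem genes it had 2 higher and 2 lower. DESeq2 called 2 endodermis genes lower and 1 xylem gene higher. Within the 1 day, 7 day and mock groups the endodermis medians were 0.19, -0.44 and -0.09. The xylem medians were 0.14, -0.11 and -0.06. The endodermis list thus also lay lower within the 7 day group, where both root hair sets were lowest. Each of these values rests on 1 shallow library.

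Of the 16 members of the hypoxia list, all tested, 3 were called lower and 0 higher, beside 0.603% and 0.792% of all tested genes. The median was -0.73, with 15 below 0. PCO1, an oxygen-sensing plant cysteine oxidase, had 2.48, 1.95 and 1.75 CPM in the shallow libraries, against 4.23 to 10 CPM with a median of 5.67 in the deep ones (log2 difference -1.58 ± 0.26, edgeR adjusted p = 0.0182). LBD41, a transcription factor, had 10.1, 10 and 7.53 CPM against 14.3 to 27.8 CPM with a median of 17.7 (-1.06 ± 0.17, 0.0154). ACO1, an enzyme of ethylene synthesis, had 8.1, 10.9 and 9.28 CPM against 13.4 to 20.6 CPM with a median of 17.7 (-0.88 ± 0.17, 0.0305). The shallow libraries lay below all deep ones in all 3 genes. The fermentation genes PDC1 at -0.84 ± 0.23 and ADH1 at -1.15 ± 0.43 did not pass, with edgeR adjusted p = 0.11 and 0.231. The within-group medians were -0.40, -0.57 and -0.71 for the 1 day, 7 day and mock groups. Calls of PCO1 and LBD41 were lost without 1 day library 3 (-1.51 and -0.95) and without mock library 1 (-1.49 and -1.08); ACO1 was called in 4 of the 9 such fits, at -1.05 to -0.78 over the 9. Thus 0 of the 16 genes were called without 1 day library 3, without mock library 1 or with shoot transcripts as a covariate, while the median of the list stayed between -0.81 and -0.61.

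**Figure D3:**
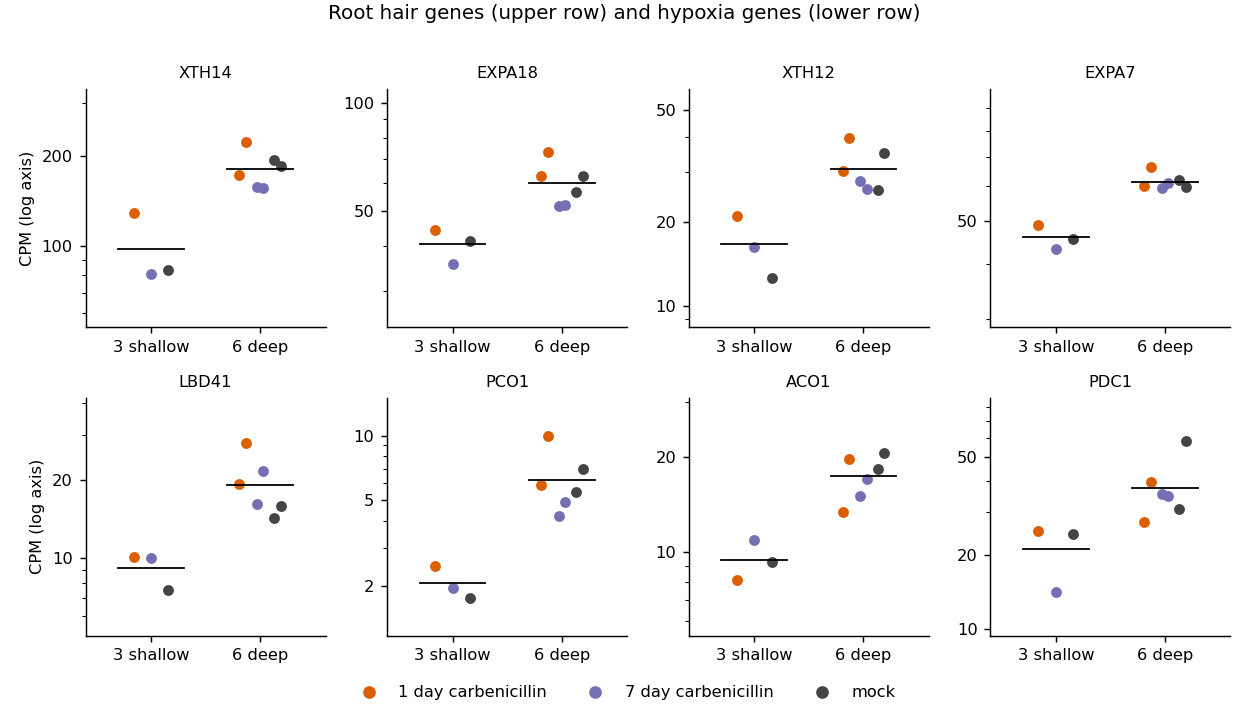
CPM (log axes) of the 4 called root hair genes (upper row) and the 4 hypoxia genes with the lowest p (lower row), with the 3 shallow libraries left of the 6 deep ones and a line at the mean. All shallow values lie below all deep ones, as with XTH14 at 80.6 to 129 CPM against 156 to 223.

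The largest falls among genes with mean CPM at or above 2 were in AT1G26390, GSTF3 and CYP71A12, which are linked to defence or detoxification. AT1G26390, a berberine bridge enzyme-like oxidase gene, had 1.7, 0.899 and 4.73 CPM in the shallow 1 day, 7 day and mock libraries, against 6.59 and 16 CPM in the deep 1 day libraries, 5.1 and 7.78 CPM in the deep 7 day libraries and 45.4 and 50.9 CPM in the deep mock libraries. Its log2 difference was -3.08 ± 0.36 (edgeR adjusted p = 0.00269), and the call was lost without mock library 1 (-2.77, 0.0564). CYP71A12, a cytochrome P450 of indolic defence compounds, had 4.18, 3.3 and 29.4 CPM in the shallow libraries, against 15.2 to 189.8 CPM with a median of 30.8 in the deep ones (-2.41 ± 0.40, 0.0182); its call was lost without any one of the 3 shallow libraries, at -2.30 without 1 day library 3, -2.34 without 7 day library 3 and -2.66 without mock library 1. AT4G14060, of the polyketide cyclase family, had 6.66, 4.8 and 2.63 CPM against 15.8 to 28.7 CPM (-2.08 ± 0.22, 0.00174), and all 9 fits that left out 1 library kept its call.

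TI1, a trypsin inhibitor gene, had 7.57, 8.54 and 4.73 CPM in the shallow libraries, against 18 to 48.3 CPM in the deep ones (-2.0 ± 0.33, edgeR adjusted p = 0.0167), and lost its call without 1 day library 3 (-2.10) and without mock library 1 (-1.53). The glutathione transferase genes GSTF3 and GSTF7 had log2 differences of -2.42 ± 0.51 and -1.29 ± 0.27 and kept their calls in 1 and 3 of the 9 fits that left out 1 library. For GSTF3 this was the fit without 1 day library 1, and its difference ranged from -2.80 to -2.17 over the 9. For GSTF7 these were the fits without 1 day library 1, 7 day library 3 and mock library 3, and the range was -1.61 to -0.94. GSTF7 had 71.8, 76.7 and 89.5 CPM in the shallow libraries, against 116 to 473 CPM. On chromosome 5 the neighbouring genes AT5G36130 and CYP716A2, both cytochrome P450 genes, and PEN3, a triterpene synthase gene, were all called lower, at -1.73 ± 0.26, -1.59 ± 0.19 and -1.94 ± 0.40; CYP716A2 was named after its values had been seen. AT5G36130 lost its call without 1 day library 3 (-1.52) and without mock library 1 (-1.51), and PEN3 kept it in 3 of the 9 fits, those without 1 day library 1, 7 day library 1 and 7 day library 3 (-2.47 to -1.65 over the 9). The immunity list of 18 tested genes had a median of 0.02: the ubiquitin ligase gene PUB22 was called higher (0.51 ± 0.10), and NHL10 (-1.21 ± 0.20) and CYP71A12 lower. PUB22 kept its call in 2 of the 9 fits, those without 1 day library 1 and 7 day library 1 (0.47 to 0.56 over the 9), and NHL10 lost its call without each of the 3 shallow libraries (-1.32, -1.27 and -1.05 without the 1 day, 7 day and mock one). Across the deep libraries AT1G26390, CYP71A12 and GSTF7 were highest in the mock group.

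Other genes called lower and named by the rule were AT5G26320, AT1G24575, the flowering regulator AGL20, the glucosinolate enzyme gene FMO GS-OX2, the lectin gene AT3G16530 and AT4G26120. AGL20 had 4.83, 2.55 and 1.05 CPM in the shallow libraries, against 7.88 to 11.2 CPM in the deep ones (-1.75 ± 0.28, edgeR adjusted p = 0.0151). It lost its call without 7 day library 3 (-1.65) and without mock library 1 (-1.43). The other 5 had log2 differences of -1.85, -1.77, -1.74, -1.67 and -1.62 in that order, and kept their calls in 9, 8, 6, 2 and 3 of the 9 fits that left out 1 library. Among further list members, CYP707A1, which breaks down abscisic acid, stood at -0.58 ± 0.12 and MYB12, a flavonol regulator, at -0.61 ± 0.13, and the kinase gene OXI1 at 0.59 ± 0.11; the medians of their lists were -0.07, -0.23 and -0.11. MYB12 kept its call in 1 of the 9 fits, without 1 day library 1 (-0.67 to -0.48 over the 9). CYP707A1 kept it in 2, without 1 day library 1 and without mock library 2 (-0.68 to -0.50), and OXI1 in 3, without each of the 1 day libraries (0.44 to 0.69).

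All 26 tested genes of the shoot and photosynthesis list had a log2 difference above 0, with a median of 0.93, and 3 were called higher and 0 lower, beside 0.792% and 0.603% of all tested genes. RCA, rubisco activase, had 115, 154 and 104 CPM in the shallow libraries, against 62.1 to 82.8 CPM with a median of 68.7 in the deep ones (log2 difference 0.81 ± 0.13, edgeR adjusted p = 0.0156), and lost its call without 1 day library 3 (0.82) and without 7 day library 3 (0.59). LHCB5, an antenna protein gene, had 46.5, 59.8 and 41.5 CPM against 28.5 to 38.8 CPM (0.56 ± 0.12, 0.0445) and was called in none of the 9 fits that left out 1 library. CA2, a carbonic anhydrase gene, had 39, 60 and 17 counts in the shallow libraries, against 0 to 2 counts in 5 deep libraries and 28 in deep mock library 3; GOX1, a photorespiratory oxidase gene outside the list, had 2.09, 7.19 and 4.9 CPM against 0.201 to 0.359 CPM in the same 5 and 2.42 CPM in that library. CA2 was called in 3 of the 9 fits, without 1 day library 1, mock library 1 or mock library 3, and its difference ranged from 3.13 to 6.49. GOX1 was called in 2, without 1 day library 1 or mock library 3, at 2.14 to 3.87 over the 9. Of the whole list 0 members were called without 1 day library 3 or 7 day library 3, 9 without mock library 1 and 13 without mock library 3. The summed CPM of the list was 867, 1146 and 624 in the shallow 1 day, 7 day and mock libraries, against 571 and 605 in the deep 1 day libraries, 532 and 531 in the deep 7 day libraries, and 575 and 656 in the deep mock libraries. The shallow mock library thus lay below deep mock library 3, and the summed level did not follow the depth class within the mock group. The within-group medians of the list were 0.84, 1.56 and 0.34 for the 1 day, 7 day and mock groups. In 12 of the 26 the shallow library lay above both deep ones in every group, beside 9.16% of all tested genes. By unadjusted edgeR p under 0.05, 22 members were higher and 0 lower, beside 15.3% of all tested genes. DESeq2 called 12 higher and 0 lower. With the log2 of the summed shoot CPM as a covariate, 1 of 26 touch genes was called higher, ZAT10 (1.72, edgeR adjusted p = 0.0449). The median of the touch list was 0.42, and 3 named genes changed sign. DIC2, HSP90.1 and AT1G23720 were still called (2.07, 1.31 and 2.41). The summed shoot CPM was higher in the shallow 1 day and 7 day libraries than in any deep library, so the covariate overlaps with the depth class. Calls lost in this fit therefore cannot tell green-tissue RNA from depth class. The part of green-tissue RNA in the other differences was not tested.

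**Figure D4:**
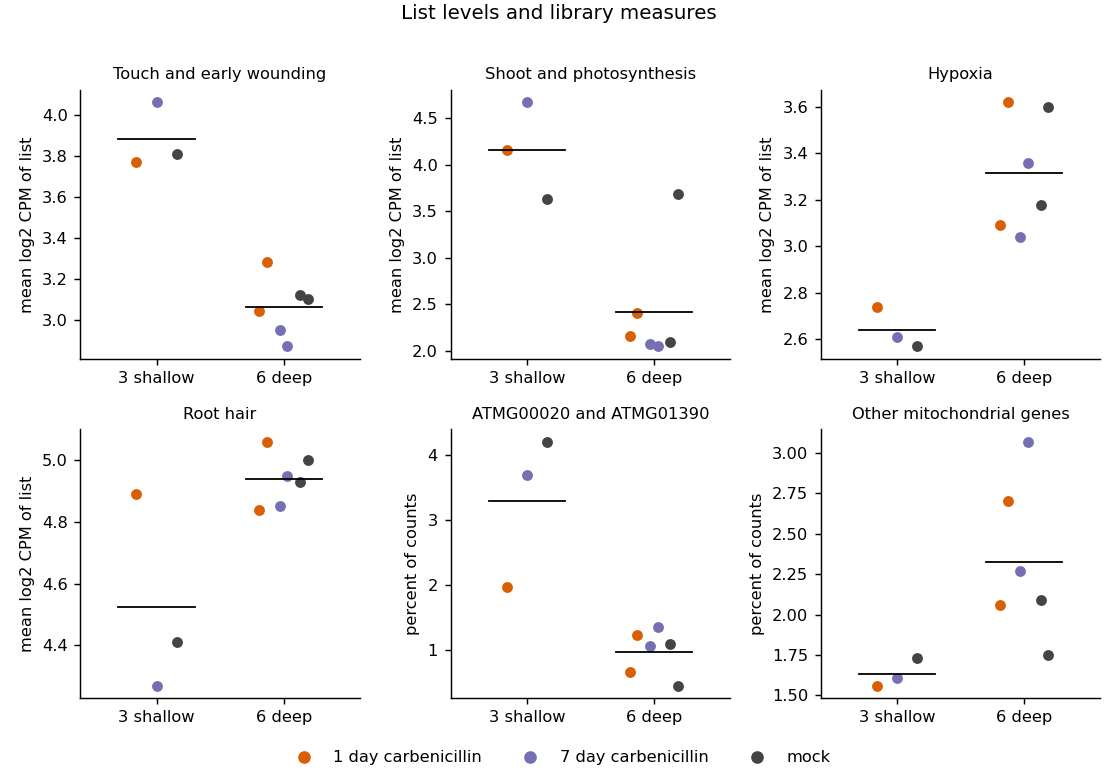
Mean log2 CPM of 4 gene lists and the share of counts of mitochondrial genes in each library, with the 3 shallow libraries left of the 6 deep ones, colours for the treatment groups and a line at the mean. The touch list lies at 3.77 to 4.06 in the shallow libraries and at 2.87 to 3.28 in the deep ones, while for the shoot list deep mock library 3, at 3.69, lies above shallow mock library 1, at 3.63.

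The mitochondrial genes ATMG00020 and ATMG01390 together took 1.97%, 3.69% and 4.2% of counts in the shallow 1 day, 7 day and mock libraries, and 0.453% to 1.35% in the deep ones. ATMG01390 had 5751, 11667 and 12320 CPM, against 825 to 2419 CPM with a median of 2089 (log2 difference 2.45 ± 0.33, edgeR adjusted p = 0.00603), and its call was lost without mock library 1 (2.03, 0.0555). All other mitochondrial genes together took 1.56%, 1.61% and 1.73% of counts in the shallow libraries and 1.75% to 3.07% in the deep ones. Of 69 mitochondrial genes tested, 65 had a difference below 0, with a median of -0.50. By edgeR 2 were called higher and 3 lower, beside 0.792% and 0.603% of all tested genes. By unadjusted edgeR p under 0.05, 3 were higher and 37 lower, beside 15.3% of all tested genes in either direction. With DESeq2, 2 were higher and 17 lower. The within-group medians were -0.61, -0.81 and -0.02 for the 1 day, 7 day and mock groups, so that the mock group hardly differed. Of the 88 plastid genes tested, 0 were called by edgeR. By unadjusted p under 0.05, beside 15.3% of all tested genes, 8 of them were higher and 10 lower. DESeq2 called 1 of them higher and 1 lower, and their median was -0.00.

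The tested genes that RefSeq describes as ribosomal RNA had low counts, apart from that of 18S RNA. ATMG00020 and ATMG01390 had no RefSeq entry and so were not classed by this description. AT2G01020 had 6, 39 and 37 counts in the shallow libraries, against 2, 0, 10, 2, 4 and 0 in the deep ones, and AT3G41979, of 5.8S RNA, had 7, 45 and 29 counts, against 1, 0, 12, 1, 1 and 0. Both were called higher, at 4.35 ± 0.54 and 4.62 ± 0.59 (edgeR adjusted p = 0.00396 and 0.00461), sizes that depend on the handling of counts near 0; AT2G01020 lost its call without mock library 1 (3.70, 0.0587). The 18S gene AT3G41768 did not pass, with 75.2, 2078 and 326 CPM in the shallow libraries and 33.9 to 789 CPM in the deep ones (2.29 ± 1.00, adjusted p = 0.307 by edgeR). The U3 small nucleolar RNA genes U3D and U3B, which act in ribosomal RNA cleavage, were lower. U3D had 90.7, 40.5 and 36.4 CPM against 169.8 to 425 CPM (-2.12 ± 0.33, 0.0138) and U3B 135, 50.5 and 60.1 CPM against 199.6 to 484 CPM (-1.82 ± 0.33, 0.0272). Both lost their calls without 7 day library 3 (-1.77 and -1.41) and without mock library 1 (-2.02 and -1.79), and U3B also without 1 day library 2, mock library 2 or mock library 3, at -1.88 to -1.77. They were the 2 called of 58 small nucleolar RNA genes tested, beside 0.603% of all tested genes called lower. The median of the 58 was -0.19.

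Spliceosomal RNA genes went both ways. U1.5 had 3139, 1725 and 846 CPM in the shallow 1 day, 7 day and mock libraries, against 119 to 1069 CPM with a median of 388 in the deep ones (2.05 ± 0.36, edgeR adjusted p = 0.0236), so that the shallow mock library fell within the deep range. U2.5 and U4.2 were lower, at -1.34 ± 0.24 and -1.12 ± 0.21, and 7 of 9 tested genes of this list, which was added after values had been seen, lay below 0. These calls were lost without mock library 1, at 2.04, -1.10 and -1.0, and without other libraries. All 11 ribosome biogenesis genes lay above 0, as did 9699 of all 19580 tested genes, and their median was 0.31. Their mean log2 CPM was 6.21, 6.51 and 6.51 in the shallow 1 day, 7 day and mock libraries. It was 5.4 in deep 1 day library 2 and 6.08 to 6.29 in the other deep ones. The shallow 1 day library thus lay within the deep range. SWA2 was called higher, beside 0.792% of all tested genes. It had 58.4, 76.6 and 71.6 CPM in the shallow libraries, against 30.8 to 51.7 CPM in the deep ones. SWA2 kept its call in 3 of the 9 fits that left out 1 library, those without 1 day library 1, 1 day library 2 and 7 day library 1 (0.58 to 0.74 over the 9). Of 288 nuclear-encoded ribosomal protein genes, 2 were called higher and 0 lower, beside 0.792% and 0.603% of all tested genes. Their median was 0.07.

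**Figure D5:**
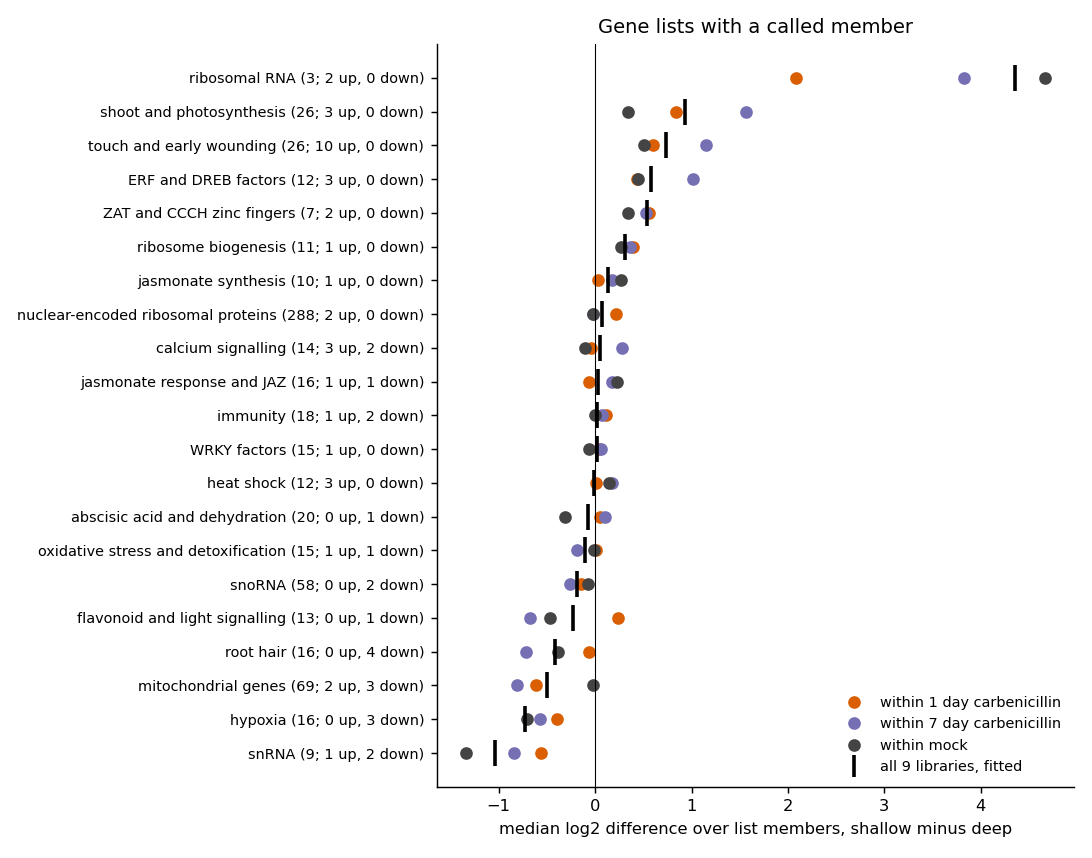
Median log2 difference, shallow minus deep (x axis), over the members of each gene list with a called gene; coloured points are the medians within each treatment group, black ticks the fit over all 9 libraries, and brackets give the genes tested and called. The touch list lies at 0.51 to 1.15 in the 3 groups and the hypoxia list at -0.71 to -0.40, while the root hair list runs from -0.72 to -0.06.

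Genes detected and gene length also differed. With counts as deposited, 21467 to 21676 genes had a count in the shallow libraries and 22087 to 22390 in the deep ones. After all libraries had been thinned to the smallest total, the order turned: 21413, 21543 and 21467 genes in the shallow 1 day, 7 day and mock libraries, against 21254 to 21399 in the deep ones. Thinning left 145 genes higher and 116 lower, of which 114 and 92 were shared with the calls above. The median log2 difference was -0.05 in the quintile of protein-coding genes with the shortest exons (102 to 1190 bases in all) and 0.06 in the quintile with the longest (2604 to 16614 bases). Genes called lower numbered 38 in the shortest quintile and 5 in the longest, and genes called higher 34 and 38; the part of length in the results was not tested. Over quintiles by mean CPM the median stayed between -0.01 and 0.01.

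Whether the difference between shallow and deep libraries was of one size in the 3 treatment groups was tested with an interaction, which rests on 1 shallow library a group. No gene passed in edgeR's quasi-likelihood test (0 of 19580), and 1344 (6.86%) had an unadjusted p under 0.05. The lowest adjusted p, 0.267, was shared by IGMT4 and IGMT2, methyltransferase genes of indole glucosinolate synthesis, and AT2G27310, an F-box gene. IGMT4 differed by 0.19 within the 1 day group, 0.59 within the 7 day group and -1.53 within the mock group. No call was made by edgeR in 16 lists with 331 tested genes. Of these genes, 22 were higher and 31 lower by unadjusted p under 0.05. Over all 19580 tested genes this held for 2995 (15.3%) in either direction. In those lists 4 genes were higher and 5 lower with DESeq2. Besides plastid, endodermis and xylem genes these were the lists of aquaporins, auxin response, cell cycle, clock, expansins, indole glucosinolates, iron, nitrate, phosphate, sugar, sulfur and cytokinin response genes. The morning clock list had the lowest median among them, -0.31, with 11 of 12 genes below 0.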

How the data were processed

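Gene-level read counts were available for 9 root libraries. The authors deposited raw counts, in whole numbers, for 28775 genes; 2 blank lines were left out. Per the labels' protocols, RNA came from a column kit and the sequencing kit keeps strand. FastQC, cutadapt and edgeR were used, per the submitters' processing notes, with no versions. The sources used here do not give the aligner, the counter, the build or the strand setting of the counting. Reads of genes that overlap one on the opposite strand, among them ERF105, TCH2, TCH3, WRKY40, EXPA18, EXPA7, RCA, GOX1, RHS19, Hop3, U3D, U3B and U4.2, may therefore be shared.

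Libraries were classed by total count, under 10000000 or not, with groups and replicate numbers from the sample titles. Tests used edgeR 4.0.16 (R 4.3.3: filterByExpr by group, TMM, glmQLFit, glmQLFTest, terms for group and depth class, adjusted p under 0.05) and were first tested on simulated counts. A standard error is the log2 difference divided by the square root of F. The common biological coefficient of variation was 0.1295 with the depth class in the fit and 0.1508 without. Within-group differences are log2 CPM (prior count 2) of the shallow library minus the mean of the 2 deep ones. Chi-square tests found no duplicate libraries. A count of 3, the limit that a count of 0 allows, equals 0.398 to 0.515 CPM in the shallow libraries and 0.186 to 0.219 CPM in the deep ones, and covers counting error only.

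The libraries and the 31 written gene lists were chosen with earlier results of these data known, and 6 more lists came from identifiers or RefSeq descriptions. RefSeq (TAIR10.1) had 28009 of the genes; promoters were read from its genome by locus identifier. Genes named were the 15 largest called differences in each direction with mean CPM at or above 2 whose shallow library lay beyond both deep ones in all 3 groups, the 3 lowest p of each list with a call, TCH3, ZAT12, WRKY40 and the 3 lowest p of the interaction. All others, such as BAP1, XTH22, CML23, EXPA7, the RHS genes, CBP60G and list members near 0, were named after their values had been seen. Alternatives were other scalings, filters, model terms and thresholds, DESeq2 1.42.0, thinning, organelle and ribosomal RNA genes left out, and each library or group left out.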

Additional observations from a re-analysis of the deposited data

Results flagged for a closer look

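The 6 deep libraries were searched for single libraries far from the other 5, over 49 measures and list means; chance flags about 1 in 20 such groups. In 4 list means 1 deep library stood apart. The shoot and photosynthesis list stood at 3.69 mean log2 CPM in mock library 3, against 2.05 to 2.41 in the other 5. The cell cycle list stood at 3.53 in 1 day library 2, against 3.99 to 4.11, and the ribosome biogenesis list at 5.4 in the same library, against 6.08 to 6.29. The heat shock list stood at 3.65 in 1 day library 1, against 3.89 to 3.98.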

How the results depend on the processing

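The counts of 155 genes higher and 118 lower changed by less than 1.5 times with RLE scaling (159 and 121), upper-quartile scaling (147 and 127), a minimum of 1 CPM in 3 libraries (150 and 118), thinning (145 and 116), organelle and ribosomal RNA genes left out (151 and 117) and no group term (106 and 79). They were 296 and 302 with DESeq2, 316 and 285 with no low-count filter, 209 and 215 with total count as a continuous term, 37 and 15 at an adjusted p under 0.01, and 66 and 52 with an absolute log2 difference of at least 1. With the shoot covariate they were 19 and 11, of which 16 and 10 were shared. With the replicate block they were 54 and 31. The labels do not say what a replicate number shares, so the main fit held no block. The shallow libraries carry the numbers 1, 3 and 3. Deviations from the group means correlated at 0.257, 0.339 and 0.423 between the libraries numbered 2. For the numbers 1 and 3 they correlated between -0.187 and 0.245. The shallow libraries correlated with each other at 0.245, 0.36 and 0.327. Every library numbered 2 was deep, so these values also hold the depth class. With depth class removed as well, the libraries numbered 2 correlated at -0.1, 0.0496 and 0.139. Those numbered 1 and 3 then lay between -0.576 and 0.465. Whether same-numbered libraries share a batch was not tested. Leaving out 1 library gave 49 to 239 genes higher and 15 to 233 lower: most without 1 day library 1, fewest without mock library 1 (37 and 12 shared). The other libraries that moved a count by over 1.5 times gave 109 and 50 without 1 day library 3, 70 and 54 without 7 day library 3, 93 and 55 without 1 day library 2, 92 and 81 without 7 day library 1, 74 and 62 without 7 day library 2, 87 and 60 without mock library 2, and 99 and 71 without mock library 3. Without the 1 day, 7 day or mock group they were 98 and 73, 58 and 37, and 33 and 9. These fits also held fewer libraries, and the causes of the changes were not tested. Of 64 named genes that were called, 20 were called in all 9 fits that left out 1 library, and 41 lost the call without mock library 1. Over 1862 values of 82 named genes in 23 alternatives, 1433 kept direction and side of the threshold, 408 lost the call, 18 gained it and 3 changed sign, all with the shoot covariate: RAB18 to -0.01, AT3G41768 to -1.09 and TCH3 to -0.39. Depth limits genes near 3 counts.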

Other observations

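The gene with the largest fitted difference, AT5G09570, was outside the naming rule for its low mean and was named after its values had been seen. RefSeq describes it as a Cox19-like protein. It had 1, 0 and 0 counts in the shallow 1 day, 7 day and mock libraries, against 51 and 53 in the deep 1 day libraries, 18 and 23 in the deep 7 day libraries and 52 and 45 in the deep mock libraries. NDB4 and AT2G21640 were also named after their values had been seen. NDB4, an alternative NAD(P)H dehydrogenase, had 4, 0 and 2 counts in the shallow libraries, against 8 to 35 in the deep ones. AT2G21640, described as a marker of oxidative stress, had 1.7, 1.35 and 1.4 CPM in the shallow libraries, against 2.37 to 4.6 CPM in the deep ones (log2 difference -1.18 ± 0.23, edgeR adjusted p = 0.0359).

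The neighbouring genes AT4G27652, AT4G27654 and AT4G27657 on chromosome 4, which RefSeq lists as uncharacterized, were all called higher in the shallow libraries and were named after their values had been seen. AT4G27652 had 12, 16.3 and 12.4 CPM in the shallow libraries, against 3.69 to 4.8 CPM in the deep ones (log2 difference 1.68 ± 0.15, edgeR adjusted p = 0.000598). AT4G27654 had 10, 24 and 21 counts in the shallow libraries, against 1 to 4 in the deep ones, and AT4G27657 had 16, 15 and 10 against 0 to 8. AT4G27280, an EF-hand protein on the same chromosome, had 24.2, 30 and 27.9 CPM against 8.9 to 12.1 CPM (1.47 ± 0.12, 0.000598).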
